A study of Mus musculus with 4 samples.

Results

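Cluster 2 of the authors' cell table is a group of B cells marked by Myc and by genes of ribosome assembly. Its members were taken as every cell to which the table gives cluster number 2, matched by library and barcode to the count matrices. They numbered 2489 of the 22569 cells of the table. SFB-negative 1 and 2 held 522 and 753 of them, and SFB-positive 1 and 2 held 414 and 800. RNA had been counted in single CD45+ (white blood) cells of Peyer's patches (clusters of lymphoid follicles in the gut wall) by droplet sequencing with unique molecular identifiers (UMIs). The animals were female wild-type Taconic mice without (SFB-negative) or with (SFB-positive) segmented filamentous bacteria, abbreviated SFB, which live attached to the epithelium of the ileum without causing disease. Each group had 2 libraries, and the labels describe pools of 5 mice. The labels used here give no other allele, agent, age or time, and whether the 2 libraries of a group came from separate pools was not stated, so p-values measure only the spread between these libraries, which may be technical.

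Myc is a transcription factor that pairs with Max, binds E-box DNA and raises the production of ribosomes, nucleotides and polyamines before a cell grows and divides. In B cells it is induced within hours of a signal through the B cell receptor, CD40 or Toll-like receptors. The same signals release NF-kB from its inhibitors, several of which are themselves NF-kB targets. Resting B cells of the follicle hold little Myc, and in germinal centres it is known from a small fraction of cells that have just received help from T cells.

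The label was checked on 6 marker genes, with levels as UMIs per 1000000 UMIs of the cells named (CPM). These genes helped to make the clusters, so cluster 2 is set beside the other cells as a description, with no test. Srm (chr4:148591503-148594993, GRCm38), which makes spermidine, stood at 228 and 105 CPM in SFB-negative 1 and 2 and 285 and 149 CPM in SFB-positive 1 and 2. The other cells of the table held 15.6 to 43.4 CPM of it. Myc (chr15:61985391-61990374) stood at 433 and 193 CPM in SFB-negative 1 and 2 and 321 and 239 CPM in SFB-positive 1 and 2, against 54.4 to 137 CPM in the other cells. For both genes the libraries numbered 1 lay above those numbered 2 in either group, and cluster 2 was above the other cells within each library. C1qbp (chr11:70977836-70983026), a protein of the mitochondrial matrix, stood at 414 and 245 CPM in SFB-negative 1 and 2 and 485 and 270.0 CPM in SFB-positive 1 and 2. Ranbp1 (chr16:18239784-18248732), a partner of the nuclear transport GTPase Ran, stood at 707 and 330.5 CPM in SFB-negative 1 and 2 and 916 and 356 CPM in SFB-positive 1 and 2. Nfkbid (chr7:30421732-30428746), a nuclear member of the inhibitor of NF-kB family, stood at 656 and 233 CPM in SFB-negative 1 and 2 and 415 and 356 CPM in SFB-positive 1 and 2. The mean log2 ratios of cluster 2 over the other cells were 2.62 ± 0.10 for Srm, 1.60 ± 0.05 for Nfkbid, 1.59 ± 0.17 for Myc, 1.70 ± 0.04 for C1qbp and 1.38 ± 0.12 for Ranbp1 (SD, n = 4 libraries, CPM + 1).

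Mir155hg (chr16:84703167-84715245), the host transcript of a microRNA induced in activated B cells, stood at 12.1 and 136 CPM in SFB-negative 1 and 2 and 19.6 and 196 CPM in SFB-positive 1 and 2. It was thus far higher in the libraries numbered 2, and its ratio over the other cells was 2.37 ± 0.60. Whether intron reads were counted is not given in the sources used here, and the Cell Ranger version differed between the numbers, so the part of intron reads in this step was not tested. The counts are of the host transcript, not of the mature microRNA. The mature strand (RefSeq, GRCm38.p6, chr16:84714143-84714165, plus strand, in exon 2 of Mir155hg) is shown because it is the product of this marker, with the seed, bases 2 to 8, in capitals.
mmu-miR-155-5p: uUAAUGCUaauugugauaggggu

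Across clusters 0 to 4, mean Srm was 192 ± 80.4 CPM in cluster 2 and at most 54.6 ± 29.9 CPM elsewhere, in cluster 3 (SD, n = 4). Mean Myc was 297 ± 105 CPM in cluster 2, 179.6 ± 48.5 in cluster 1, 97.1 ± 43.2 in cluster 4, 71.2 ± 38.7 in cluster 0 and 37.3 ± 10.7 in cluster 3. Ranbp1 set cluster 2 apart least, at 577 ± 284 CPM against 514 ± 256 CPM in cluster 3. Within a library, each of the 6 genes was highest in cluster 2 among clusters 0 to 4. Cluster 3 is the one with germinal centre genes: Mef2b, a transcription factor of germinal centre B cells, averaged 340.2 ± 96.8 CPM there and 21.4 ± 9.61 in cluster 2. Clusters 0 and 1 share high Ccr7 and Ighd with cluster 2, and cluster 1 stands out by the heat shock gene Hspa1a, at 2023 ± 1041 CPM against 84.9 ± 82.6 in cluster 0 and 572 ± 391 in cluster 2.

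**Figure D1:**
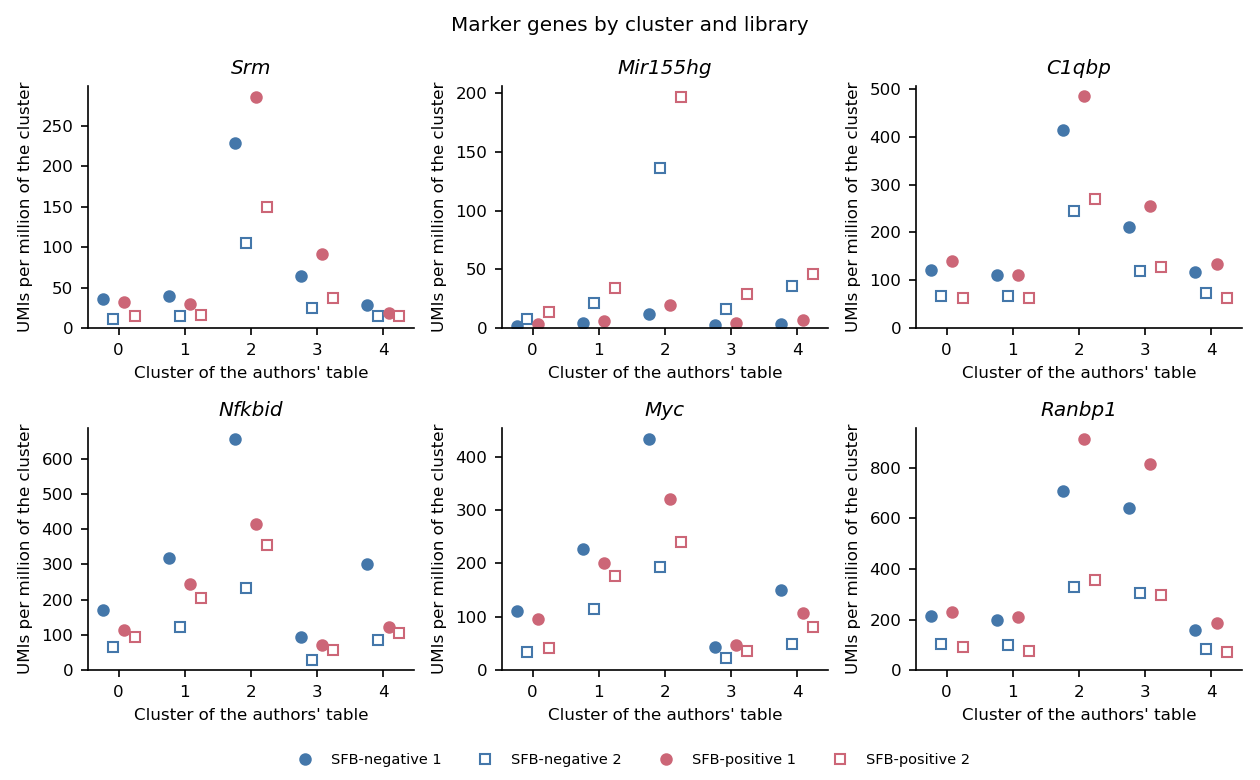
CPM within the cluster (vertical axes, linear from 0) for the 6 marker genes in clusters 0 to 4, with 1 point per library (blue SFB-negative, red SFB-positive, filled circles replicate number 1, open squares number 2). In each library the point of cluster 2 is the highest, and Ranbp1 in cluster 3 comes nearest to it.

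Some facts of the libraries bear on all values. The libraries held 6979187 to 83600989 UMIs in all, and the cells of cluster 2 held 816536 to 6791365. Median UMIs per cell of cluster 2 were 1540.5 and 3852 in SFB-negative 1 and 2 and 1602 and 6936.5 in SFB-positive 1 and 2, above those of cluster 0 in every library. The replicate number went with the Cell Ranger version in the headers, with antibody tags (number 1 only) and with depth. The labels name an aim of about 4000 cells per library, and the matrices hold 4595, 12921, 4031 and 10338 barcodes in the same order. No barcode of cluster 2 was shared between libraries. The most genes in a cell of cluster 2 were 2215, 3808, 2304 and 5989 in that order, so the deepest library also kept the deepest cells.

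Srm, Mreg and Egr1 had the highest ratios. The 20 genes of highest mean ratio, with at least 20 CPM in cluster 2 of each library, were Srm, Mreg, Egr1, Ifrd2, Pus7, Mettl1, 3110082I17Rik, Atad3a, Rrp1b, Ppp1r14b, Trmt61a, Ppa1, Tma16, Nop2, Ccnd2, Nop16, Gcsh, Lap3, Rrp9 and Dkc1. Mreg, melanoregulin, had a log2 ratio of 2.47 ± 0.29 and stood at 39.7 and 70.3 CPM in SFB-negative 1 and 2 and 58.8 and 131 CPM in SFB-positive 1 and 2. Egr1, an early transcription factor of B cell receptor signalling, had 2.26 ± 0.35 and stood at 114 and 121 CPM in SFB-negative 1 and 2 and 74.7 and 174 CPM in SFB-positive 1 and 2. Mettl1 and Trmt61a, which methylate transfer RNA, had 2.18 ± 0.20 and 2.0 ± 0.13. Pus7 and Dkc1, which make pseudouridine, had 2.22 ± 0.17 and 1.80 ± 0.29. Rrp1b, Nop2, Nop16 and Rrp9, proteins of the nucleolus, lay between 1.80 ± 0.16 and 2.03 ± 0.18. Ccnd2, the cyclin of early G1 phase, had 1.86 ± 0.21 and stood at 300.0 and 161 CPM in SFB-negative 1 and 2 and 524 and 333 CPM in SFB-positive 1 and 2.

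The promoters of these genes were read from RefSeq (GRCm38.p6, 250 bases before to 50 after each start), since these genes were high together. The E-box hexamer CACGTG, which reads the same on both strands, was in the promoter of 8 of the 16 leading genes with an entry (50%). Over all 27025 genes of the table it was in 8.09%, and over the ribosome biogenesis list in 7 of 33. Srm, Egr1, Atad3a and Ccnd2 have no entry, nor has Myc. Of the 6 markers, Mir155hg, C1qbp, Nfkbid and Ranbp1 have entries, and none of them holds the hexamer in this window. A match is a description of the letters and shows no binding. The windows below carry the hexamer in capitals, 5′ to 3′ on the gene's strand, with 100 bases where it lies before the start and 30 where it lies after it.
Pus7, chr5:23783666-23783695, minus strand: ggcgcagcgccgCACGTGtgcgagcccggc
Mettl1, chr10:127041950-127041979, plus strand: agctcggctctcCACGTGgactgcgtggca
3110082I17Rik, chr5:139460656-139460755, minus strand: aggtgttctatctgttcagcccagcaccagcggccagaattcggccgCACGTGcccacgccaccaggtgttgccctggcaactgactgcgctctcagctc
Trmt61a, chr12:111678118-111678147, plus strand: ccgccgtggagcCACGTGtggagccgggag
Ppa1, chr10:61648434-61648533, plus strand: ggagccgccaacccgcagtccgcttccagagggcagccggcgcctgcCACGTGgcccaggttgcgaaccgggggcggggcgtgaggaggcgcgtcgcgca
Tma16, chr8:66486498-66486527, minus strand: tcccccggggccCACGTGtgttagggaaga
Nop2, chr6:125131776-125131875, plus strand: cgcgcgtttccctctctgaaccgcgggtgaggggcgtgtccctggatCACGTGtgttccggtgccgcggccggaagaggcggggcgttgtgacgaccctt
Lap3, chr5:45493394-45493423, plus strand: cgcgcgccctgccacgcgcCACGTGctcct

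The lists that follow count members whose mean levels over the 4 libraries in cluster 2 and in the other cells add up to at least 40 CPM, and a member is counted as higher or lower when it was so in all 4 libraries. Of all 5804 genes at that level, 29.9% were higher and 31.1% lower, with a median log2 ratio of -0.02. Of the ribosome biogenesis list, 36 of the 36 members at that level were higher, with a median of 1.41. Npm1, nucleophosmin, stood at 1887 and 2167 CPM in SFB-negative 1 and 2 and 2493 and 2172 CPM in SFB-positive 1 and 2, with a ratio of 1.09 ± 0.20. Ncl, nucleolin, stood at 1340.2 and 1959.9 CPM in SFB-negative 1 and 2 and 1331 and 2181 CPM in SFB-positive 1 and 2, with a ratio of 1.44 ± 0.08. Fbl and Nop56, which methylate ribosomal RNA as parts of one particle, had ratios of 1.36 ± 0.07 and 1.24 ± 0.14.

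Other genes of growth were higher as well. In nucleotide and one-carbon synthesis 17 of the 18 members were higher (median 1.02), among them the nucleoside diphosphate kinase Nme1 (1.37 ± 0.12), Impdh2 of guanine nucleotide synthesis (0.96 ± 0.07) and Shmt2 of mitochondrial serine use (1.63 ± 0.20). In translation initiation 12 of the 13 were higher (median 0.88), with 1.07 ± 0.10 for the helicase Eif4a1 and 0.88 ± 0.19 for Eif2s2. All 15 genes of mitochondrial chaperones and import were higher (median 1.07), with 1.07 ± 0.10 for Hspd1 and 0.70 ± 0.14 for Hspe1, the folding chamber of the matrix and its lid. The CCT chaperonin, which folds actin and tubulin, was higher in all 7 subunits at the level (median 0.74). Of nuclear transport genes 6 of the 9 were higher (median 0.57), with 0.73 ± 0.14 for the GTPase Ran, and of oxidative phosphorylation genes 14 of the 22 (median 0.28), with 0.53 ± 0.08 for Atp5b of the ATP synthase.

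Of the polyamine genes, 7 of the 11 were higher and 3 lower. Srm and Eif5a, the translation factor that carries a residue made from spermidine, were higher, at 2.62 ± 0.10 and 1.22 ± 0.07. Oaz1, the antizyme that lowers ornithine decarboxylase, was lower, at -0.14 ± 0.06, and Odc1, the decarboxylase itself, was higher, at 0.92 ± 0.22. Sms and Amd1 of polyamine synthesis were higher at 0.51 ± 0.20 and 0.64 ± 0.22, and Dhps and Dohh, which modify Eif5a, at 0.46 ± 0.19 and 0.37 ± 0.08. The lower ones were Oaz1, Oaz2 (-0.45 ± 0.29) and Sat1 (-0.38 ± 0.15), which marks polyamines for removal. Azin1, an inhibitor of antizyme, differed in sign between libraries (-0.13 ± 0.14). Sms, Amd1, Dhps, Dohh, Oaz2, Sat1 and Azin1 are named after their values were seen. In glycolysis 8 of the 11 were higher (median 0.44), where Ldha, which makes lactate, had 1.04 ± 0.12 and Gapdh -0.06 ± 0.08. Of amino acid transporters 6 of the 7 were higher. Slc3a2, the heavy chain of the large neutral amino acid carrier, had 0.79 ± 0.13, and Slc38a2 had -0.13 ± 0.05.

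**Figure D2:**
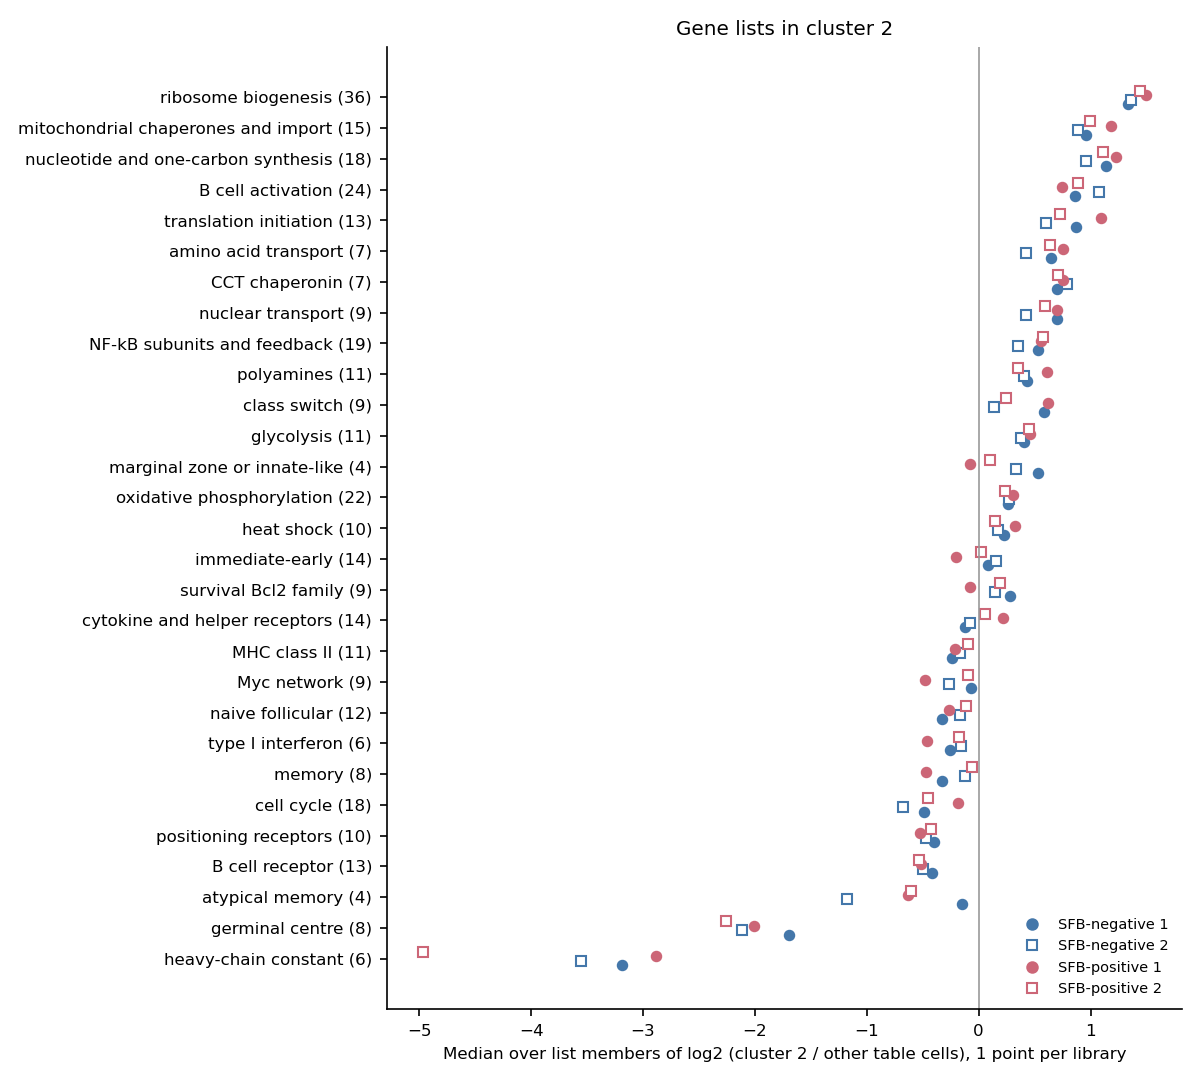
Median over list members of the log2 ratio of cluster 2 over all other table cells (horizontal axis), with 1 point per library and the number of members at the level in brackets. The 6 markers, whose median is 1.65, are not drawn. Of the lists drawn, ribosome biogenesis stands highest and the germinal centre and heavy-chain lists lowest, and the 4 libraries lie close together for most lists.

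Genes of the Myc network itself showed no common direction: 1 of 9, Myc itself, was higher and 2 were lower (median -0.17). Max, the partner of Myc, had a log2 ratio of -0.11 ± 0.21, Mycbp2 had -0.51 ± 0.21 and Mga 0.15 ± 0.19. Members picked after their values were seen were Mxd4, which competes with Myc for Max, at -1.47 ± 0.23, and Tfap4, a transcription factor known as a Myc target, at 2.19 ± 0.53 from 9.13 to 41.6 CPM.

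Of the NF-kB subunits and feedback genes, 12 of the 19 were higher and 2 lower (median 0.52). The subunit Rel stood at 731 and 1818 CPM in SFB-negative 1 and 2 and 497 and 2133 CPM in SFB-positive 1 and 2, against 337 to 1231 CPM in the other cells. Nfkbia, the inhibitor that NF-kB itself induces, stood at 891 and 345 CPM in SFB-negative 1 and 2 and 699 and 453 CPM in SFB-positive 1 and 2, against 168 to 440.3 CPM. Their ratios were 0.70 ± 0.10 and 1.02 ± 0.03, and that of the subunit Nfkb1 was 0.97 ± 0.35. A kappa B-like motif (GGG, any 2 bases, then TTTCC, on either strand) was in the promoter of 7 of the 17 list genes with an entry (41.2%), against 1.89% of all genes. The list was chosen to hold feedback genes that NF-kB itself induces, so this share describes the list and nothing is read from it for cluster 2. Of the 16 leading genes and the 4 markers with an entry, 0 held the motif. The 2 list members of highest level that hold it are shown, with the match in capitals.
Nfkbia, chr12:55492648-55492747, minus strand: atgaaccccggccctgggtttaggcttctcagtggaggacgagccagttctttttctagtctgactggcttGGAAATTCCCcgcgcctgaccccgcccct
Rel, chr11:23771006-23771105, minus strand: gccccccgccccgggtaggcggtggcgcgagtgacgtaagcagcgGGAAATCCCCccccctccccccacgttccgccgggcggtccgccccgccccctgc

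B cell activation genes were higher in 21 of the 24 members (median 0.97) against the other cells pooled, and cluster 1 alone is compared further on. Cd83, a surface protein of activated B cells, had a ratio of 0.27 ± 0.18 from 919 to 1775 CPM, and Nr4a1, an orphan receptor induced by antigen receptor signals, had 0.56 ± 0.13. Dusp2, a phosphatase of the kinase Erk, had 0.47 ± 0.26 and Marcksl1 1.12 ± 0.16. Cd86, a ligand of CD28 on T cells, was the 1 member that was lower in all 4 libraries, at -0.51 ± 0.37, and is named for that. Of the Bcl2 family, 4 of the 9 were higher, with 1.28 ± 0.37 for Bcl2a1b and 1.64 ± 0.28 for Bcl2a1d, which block cell death, 0.66 ± 0.15 for Bax, which promotes it, and -0.17 ± 0.04 for Mcl1. Bcl2a1b and Bcl2a1d are near-identical copies whose reads may be split between them.

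Immediate-early genes showed no common direction, with 3 of 14 higher and 4 lower. Junb had 0.20 ± 0.07, Jund -0.15 ± 0.16 and Klf2, a factor of resting B cells, -0.68 ± 0.20. The heat shock list was mixed too. Hsp90ab1 had 0.79 ± 0.08 and Hspa5, the chaperone of the endoplasmic reticulum, 0.69 ± 0.12, whereas the inducible Hspa1a and Hspa1b had -0.35 ± 0.49 and -0.64 ± 0.35, with cluster 1 counted among the other cells.

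Cell cycle genes differed among themselves. Ccnd2 and Cdk4, which act together in G1, had ratios of 1.86 ± 0.21 and 0.84 ± 0.09, while Ccnd3 had -0.70 ± 0.16 and Pcna, the clamp of replication, 0.06 ± 0.25. Of 18 members at the level 3 were higher and 11 lower. Mki67 and Top2a, division genes picked after their values were seen, averaged 5.10 ± 3.71 and 19.7 ± 8.90 CPM in cluster 2, 2.59 ± 1.13 and 8.94 ± 3.90 in cluster 0 and 337 ± 254 and 459 ± 154 in cluster 3. Birc5, Cdca3 and Ube2c, all of mitosis, and the linker histone H1fx were among the 10 genes of lowest ratio to the other cells, which include cluster 3. Jchain, Igha, Ighg1, Ighg2b and Anxa2 were also among them. Against cluster 0 alone these 10 genes had mean log2 ratios from -0.69 ± 0.67 (H1fx) to 0.63 ± 0.52 (Ube2c). The median of the cell cycle list against cluster 0 was 0.70.

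No germinal centre gene of 8 at the level was higher, and all were lower (median -1.92). The other cells include cluster 3. Against cluster 0 alone the median was -0.05. Klhl6 had -1.39 ± 0.23, Bcl6, the master regulator of germinal centres, -0.79 ± 0.62, and Mef2b -1.90 ± 0.40. Genes of resting follicular B cells split: Ccr7, which guides cells to the T zone, had 0.48 ± 0.15, Ighd 0.05 ± 0.17, Foxp1 0.00 ± 0.15 and Bach2, which restrains plasma cell fate, -0.70 ± 0.12. Of positioning receptors 6 of the 10 were lower. Gpr183 and Cxcr5 had 0.17 ± 0.34 and 0.28 ± 0.09, and Cxcr4 -0.49 ± 0.16. Picked after its value was seen, S1pr1, which serves exit from lymphoid tissue, had -1.01 ± 0.30.

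Genes of the B cell receptor and its signalling were lower in 12 of the 13 members (median -0.50). Cd79a stood at 2468 and 1288 CPM in SFB-negative 1 and 2 and 2331 and 1116 CPM in SFB-positive 1 and 2, so the cells held this defining B cell gene in every library. Cd79a and Cd79b, the signalling chains of the receptor, had -0.53 ± 0.06 and -0.76 ± 0.13, Ebf1 -0.35 ± 0.06 and Ms4a1 (CD20) -0.50 ± 0.16. Of MHC class II genes 8 of the 11 were lower, though Cd74, H2-Ab1 and H2-Aa, the most abundant, differed little, at -0.07 ± 0.04, 0.09 ± 0.06 and -0.01 ± 0.04. Of the class switch list 5 of the 9 were higher. They include Apex1, a nuclease of base excision repair, at 1.78 ± 0.24, and Batf, at 0.99 ± 0.22.

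Markers of other cells were summed in the same way. The 12 T cell markers summed to 123 to 261 CPM in cluster 2 and 159 to 401 in cluster 0, mostly from Cd2 and Lck, and Cd4 was at 0 in 3 libraries. The 10 myeloid markers summed to 132 to 176 CPM against 203 to 257, mostly from Cst3 and Tyrobp, and C1qa, C1qb, S100a8 and S100a9 were at 0 in every library. The 9 epithelial markers summed to 6.63 to 29.8 CPM against 6.55 to 27.0. The 10 plasma cell markers summed to 275 to 534 CPM against 345 to 639, and the 12 germinal centre markers to 133 to 223 against 198 to 299. The 10 memory markers summed to 751 to 999 CPM against 1063 to 1523, lower than cluster 0 in every library. The 8 marginal zone markers summed to 379 and 324 CPM in SFB-negative 1 and 2 and 256 and 334 CPM in SFB-positive 1 and 2, higher than cluster 0 in 3 of 4 libraries. The 8 atypical memory markers summed to 61.8 and 119 CPM in SFB-negative 1 and 2 and 201 and 296 CPM in SFB-positive 1 and 2, against 39.9 and 92.3 CPM in SFB-negative 1 and 2 and 128 and 221 CPM in SFB-positive 1 and 2 for cluster 0. They were higher in cluster 2 in all 4 libraries and higher in the SFB-positive libraries in both clusters. Itgax, Cxcr3 and Itgam were at 0 in SFB-negative 1. Ighg2b, described further on, is 1 of the 8 markers. In cluster 2 it gave 2.21 and 2.94 CPM in SFB-negative 1 and 2 and 121 and 43.3 CPM in SFB-positive 1 and 2. In cluster 0 it gave 3.50 and 2.13 CPM in SFB-negative 1 and 2 and 58.3 and 24.2 CPM in SFB-positive 1 and 2. The difference between groups in the sums thus includes that of Ighg2b, and nothing is read from it for the other members. The part of such cells in the results was not tested.

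To see how the programme was spread over cells, each cell was thinned at random to 1000 UMIs, and shallower cells were left out (in order 470, 752, 383 and 800 cells of cluster 2 were kept). The median cell of cluster 2 then held 8, 8, 9 and 8 UMIs of ribosome biogenesis genes in SFB-negative 1 and 2 and SFB-positive 1 and 2. The median cell of cluster 0 held 3 in each library. The 10th percentile of cluster 2 was 3, 3, 4 and 2.90, close to the median of cluster 0, and the 90th percentile of cluster 0 was 6 to 6.50, below the medians of cluster 2. In cluster 3 the medians were 4, 3, 5 and 4. Its 90th percentiles were 8, 7, 9 and 8, which reached the medians of cluster 2 except in SFB-negative 2. Of B cell activation genes the median cell held 6, 4, 5 and 6 UMIs in that order, in cluster 2 and in cluster 1 alike. The means were 8.14, 5.47, 6.61 and 7.74 in cluster 2 and 6.96, 4.78, 5.61 and 6.76 in cluster 1. Of NF-kB genes the medians were 3, 4, 2 and 5 in cluster 2 and 2, 3, 2 and 4 in cluster 1. After thinning, 29.4% and 18.0% of cells of cluster 2 held a Myc UMI in SFB-negative 1 and 2, and 25.6% and 19% in SFB-positive 1 and 2. In cluster 1 the shares were 17.2% and 10.9% in SFB-negative 1 and 2 and 14.0% and 14.1% in SFB-positive 1 and 2. In cluster 3, where Myc was lowest, the shares were 1.67% to 3.40%. Before thinning, the shares in cluster 2 were 32.6 to 56.5%, in cluster 1 18.1 to 41.8% and in cluster 3 11.8 to 24%. Free RNA in droplets can add to each share.

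**Figure D3:**
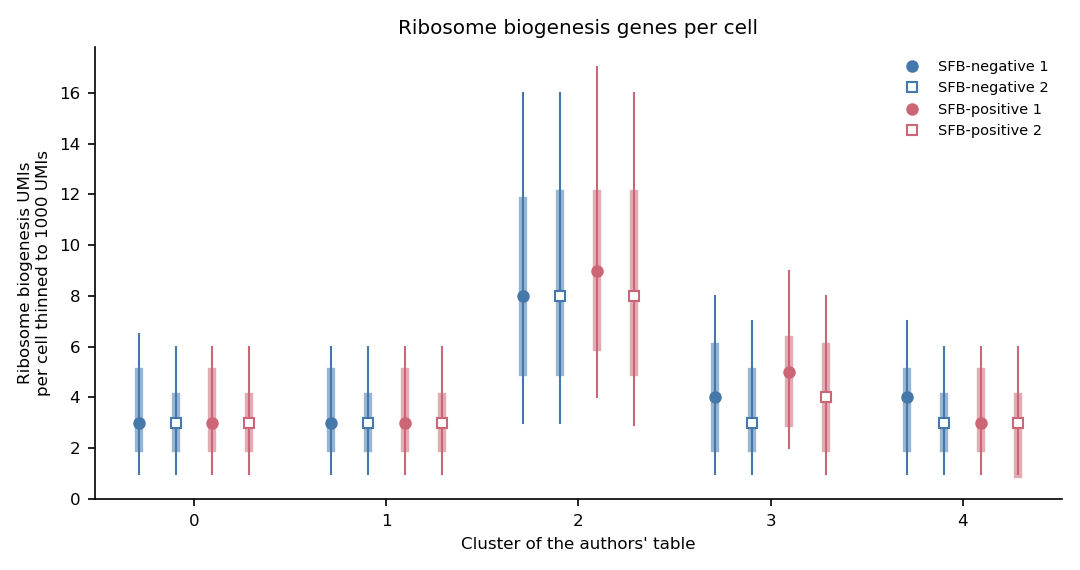
Ribosome biogenesis UMIs per cell after thinning each cell to 1000 UMIs (vertical axis) by cluster and library. Points are medians, thick bars the 25th to 75th percentile and thin lines the 10th to 90th percentile, and cluster 2 has the highest medians, at 8 or 9 UMIs against 3 in cluster 0.

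Surface proteins were counted by antibody tags in the libraries numbered 1 only, 1 per group, so the groups were not compared. The median count of the CD38 tag per cell was 21 in SFB-negative 1 and 13 in SFB-positive 1, against 20 in SFB-negative 1 and 13 in SFB-positive 1 for cluster 0 and 6 in SFB-negative 1 and 4 in SFB-positive 1 for cluster 3, where low CD38 is a known trait of mouse germinal centre cells. The median IgD tag was 8 in SFB-negative 1 and 4 in SFB-positive 1 in cluster 2 and 3 in SFB-negative 1 and 2 in SFB-positive 1 in cluster 3. The median CD24 tag was 5 in SFB-negative 1 and 2 in SFB-positive 1 in cluster 2, 4 in SFB-negative 1 and 2 in SFB-positive 1 in cluster 0 and 10 in SFB-negative 1 and 4 in SFB-positive 1 in cluster 3. Mean tag counts gave another order in SFB-negative 1. There the mean CD38 tag was 39.1 in cluster 2, 31.1 in cluster 0 and 41.4 in cluster 3, the mean CD24 tag 27.6 in cluster 2, 10.3 in cluster 0 and 28.2 in cluster 3 and the mean IgG1 tag 6.09 in cluster 2, 0.599 in cluster 0 and 6.93 in cluster 3. In SFB-positive 1 the mean CD38 tag was 21.6 in cluster 2, 22.5 in cluster 0 and 14.3 in cluster 3, the mean CD24 tag 8.14 in cluster 2, 7.66 in cluster 0 and 12.1 in cluster 3 and the mean IgG1 tag 0.483 in cluster 2, 0.479 in cluster 0 and 0.808 in cluster 3. The means of cluster 2 in SFB-negative 1 thus lay nearer to cluster 3 than to cluster 0 for all 3 tags, and the medians of CD38 and CD24 nearer to cluster 0. The median IgG1 tag there was 0 in clusters 2 and 0 and 2.5 in cluster 3. A UMI of it was held by 25.3% of cells in cluster 2, 26.2% in cluster 0 and 62.2% in cluster 3. The IgG1 mean of cluster 2 thus does not describe its typical cell. The mean of the RatIgG2bkappa isotype control in SFB-negative 1 was 0.105 in cluster 2, 0.0783 in cluster 0 and 0.128 in cluster 3. The isotype controls and the IgA, IgM and Syndecan-1 tags had medians of 0 in clusters 0 to 4.

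**Figure D4:**
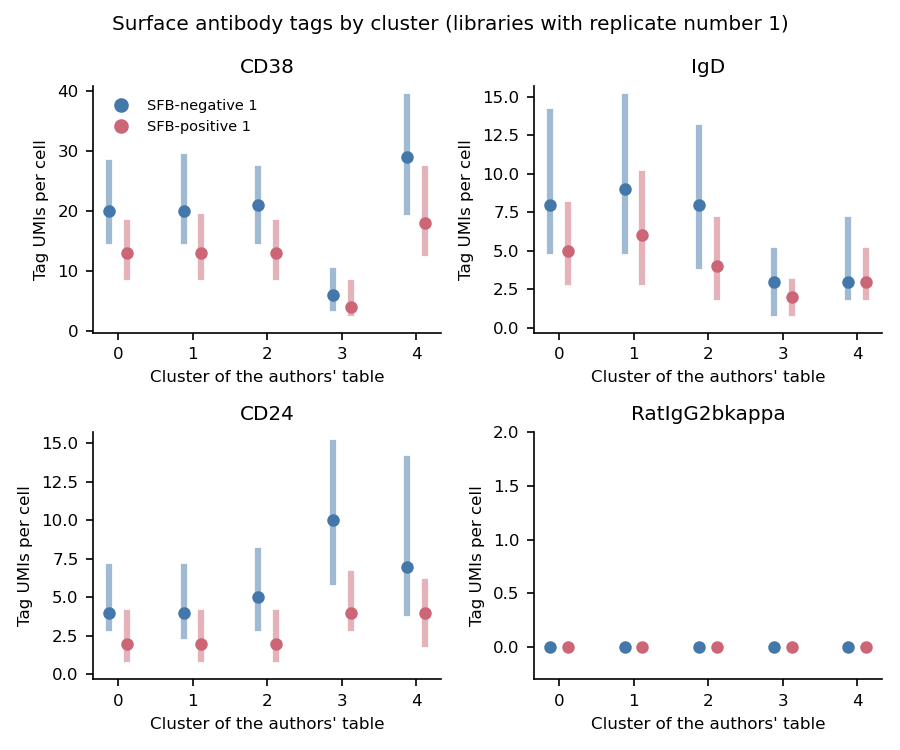
Antibody tag UMIs per cell (vertical axes) in clusters 0 to 4 of the libraries numbered 1, with points for medians and bars for the 25th to 75th percentile. The medians of CD38 and IgD in cluster 2 lie near those of clusters 0 and 1 and above those of cluster 3, and the median of the isotype control is 0.

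The first question for the bacteria was whether cluster 2 took another share of the cells. It held 12.9% (95% exact Clopper-Pearson interval 11.9 to 14.0) and 9.74% (9.09 to 10.4) of table cells in SFB-negative 1 and 2. The shares of SFB-positive 1 and 2 were 12.1% (11.1 to 13.3) and 10.8% (10.1 to 11.6). The intervals cover counting error only. The means were 11.3% ± 2.23 and 11.5% ± 0.925 (SD, n = 2), and the groups overlapped. The difference of 0.180 percentage points had p = 1 in a two-sided exact permutation test, which cannot go below 0.333 with 2 libraries a group. It was -0.741 points within number 1 and 1.10 within number 2.

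For genes, the UMIs of cluster 2 were summed per library and compared with edgeR's quasi-likelihood test and Benjamini-Hochberg adjustment, limit 0.05. A positive log2 difference means a higher level in the SFB-positive libraries. Without the replicate number as a term, 0 of 8913 genes passed, 12 had an unadjusted p under 0.05, and DESeq2 called 1. With the replicate number as a term (the replicate block), 102 genes passed (1.14%), 23 higher (0.258%) and 79 lower (0.886%) in SFB-positive libraries, and 674 had an unadjusted p under 0.05. DESeq2 with the same term called 2 higher and 3 lower. Below, "rose" and "fell" refer to edgeR with the replicate block, a fit that leaves 1 residual degree of freedom and takes the spread of a gene almost wholly from all genes. Levels in this comparison are CPM scaled by edgeR's TMM factors.

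None of the 6 markers passed. The log2 difference was 0.23 ± 0.29 (SE) for Srm, -0.23 ± 0.30 for Myc, -0.19 ± 0.31 for Nfkbid, 0.00 ± 0.31 for C1qbp, 0.06 ± 0.33 for Ranbp1 and 0.29 ± 0.33 for Mir155hg. For Myc the 95% interval ran from -0.82 to 0.36, with 459 and 208 CPM in SFB-negative 1 and 2 and 341 and 202 CPM in SFB-positive 1 and 2. For Srm it ran from -0.34 to 0.81, with 242 and 113 CPM in SFB-negative 1 and 2 and 303 and 126 CPM in SFB-positive 1 and 2. In both cases the step from number 1 to number 2 was larger than the step between groups. Of the 38 ribosome biogenesis genes none passed and their median log2 difference was 0.00, near the -0.01 of all genes tested. None passed either among 13 genes of translation initiation, 15 of mitochondrial chaperones and import, 20 of NF-kB or 21 of nucleotide synthesis, with medians from -0.04 to 0.15. All 11 MHC class II genes had negative differences (median -0.30), and none passed. Negative differences were found in 4565 of all 8913 genes tested.

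Inducible heat shock genes rose. Hspa1a, the stress-induced Hsp70, stood at 417 and 137 CPM in SFB-negative 1 and 2 and 1077 and 636 CPM in SFB-positive 1 and 2, a log2 difference of 1.79 ± 0.34 with an adjusted p of 4.98e-05 in edgeR. Both SFB-positive libraries lay above both SFB-negative ones. Hspa1b, its near-identical copy, had 1.76 ± 0.35, with 0.15 and 2.18 within numbers 1 and 2, so that its rise stood in number 2. The small heat shock protein Hspb1 had 1.74 ± 0.41, with 2.46 and 1.49 within them. It rested on 2 and 23 UMIs in SFB-negative 1 and 2 and 12 and 174 UMIs in SFB-positive 1 and 2. Reads may be split between Hspa1a and Hspa1b. These are 3 of 12 heat shock genes tested, and the list's median was 0.70. Hspa1a in cluster 0 stood at 75.6 and 13.3 CPM in SFB-negative 1 and 2 and 203 and 48.0 CPM in SFB-positive 1 and 2, higher in SFB-positive libraries within each number, and the test of the 2 clusters' differences gave 0.36 ± 1.06 and an adjusted p of 1.000.

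Slamf1, a homophilic receptor (CD150) of activated lymphocytes, rose by a log2 difference of 1.21 ± 0.31 (adjusted p = 0.0106, edgeR), with 14.0 and 17.5 CPM in SFB-negative 1 and 2 and 42.9 and 36.1 CPM in SFB-positive 1 and 2. The groups did not overlap, and the differences within numbers 1 and 2 were 1.57 and 1.02. It was the only one of 29 activation genes to pass, and their median was -0.14. Cfp, properdin of the complement cascade, rose by 1.56 ± 0.33, with 15.2 and 8.58 CPM in SFB-negative 1 and 2 and 57.2 and 21.8 CPM in SFB-positive 1 and 2. Serpina3g, an intracellular protease inhibitor, rose by 1.42 ± 0.37, with 9.34 and 7.95 CPM in SFB-negative 1 and 2 and 42.9 and 16.0 CPM in SFB-positive 1 and 2. Slc15a2, a carrier of short peptides, rose by 1.50 ± 0.32 and Chst12, a sulfotransferase, by 1.26 ± 0.33. The other genes of the 12 largest rises were Gm15987 (1.73 ± 0.32), Atad5, which unloads the replication clamp (1.62 ± 0.44), Gm47283 (1.40 ± 0.38) and Magi3 (1.25 ± 0.34), after Ighg2b, described further on. Over the 23 genes that rose, 23 were higher within both numbers and 14 had groups that did not overlap, where 24.1% of all genes tested were higher within both numbers and 12.2% had groups without overlap. A fit with the replicate number favours genes that differ the same way in both, so nothing is read from these counts. With cells of fewer than 3000 genes, Hspb1, Atad5, Cfp, Gm47283, Chst12 and Magi3 did not pass. Socs3, a feedback inhibitor of cytokine signals, and Sbno2 rose by 1.0 ± 0.29 and 1.14 ± 0.29, and were picked after their values were seen.

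A single cell cycle gene passed. Mcm2, part of the replicative helicase, rose by 1.03 ± 0.29 (adjusted p = 0.0382, edgeR), with 32.7 and 15.6 CPM in SFB-negative 1 and 2 and 89.7 and 25.6 CPM in SFB-positive 1 and 2. Its groups overlapped, and the cell cycle genes tested numbered 16. Of these genes 15 had positive differences, with a median of 0.68. Among all genes tested 48.8% were positive. The 16 are those that passed the filter on low counts, not all 27 of the list. A gene can pass that filter through the libraries of 1 group alone, so nothing is read from the count of positive differences. Genes outside the lists that rose and were picked after their values were seen were Pclaf (1.20 ± 0.33) and Chaf1a (3.24 ± 0.75), which act at the fork, the polymerase subunit Pola1 (1.19 ± 0.33) and the histone methyltransferase Ezh2 (1.07 ± 0.30). The difference of Chaf1a rested on 2 and 1 UMIs in SFB-negative 1 and 2 and 6 and 59 UMIs in SFB-positive 1 and 2. Cells of cluster 2 with a UMI of a mitosis or germinal centre gene were then set aside. The mitosis genes were Mki67, Top2a, Birc5, Ube2c, Ccnb1, Ccnb2 and Cdk1, and the germinal centre genes Rgs13, Mef2b, S1pr2, Gcsam and Nuggc. This left 483 of 522 and 565 of 753 cells in SFB-negative 1 and 2 and 361 of 414 and 546 of 800 in SFB-positive 1 and 2. A deeper cell meets this rule more easily, so the cells left are not alike between libraries, and the levels are a description. Mcm2 then stood at 30.0 and 14.3 CPM in SFB-negative 1 and 2 and 75.5 and 20.2 CPM in SFB-positive 1 and 2 (unscaled), and the groups still overlapped. Slamf1 stood at 13.2 and 18.0 CPM in SFB-negative 1 and 2 and 40.8 and 52.6 CPM in SFB-positive 1 and 2, still without overlap. Chaf1a kept 1 and 1 UMIs in SFB-negative 1 and 2 and 3 and 13 UMIs in SFB-positive 1 and 2. Mcm2 also missed the limit with cells of fewer than 3000 genes and without cells holding genes of other cell types (adjusted p = 0.944 and 0.123, edgeR).

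The genes that fell were mostly set by 1 library. Of 79, 72 had their highest level in SFB-negative 2, 44 were lower within both numbers, and 29 had groups without overlap. Histone genes made up 10 and genes with Gm or Rik names 28 of them. Of all 8913 genes tested, 1867 were highest in SFB-negative 2, 2211 were lower within both numbers and 1087 had groups without overlap in either direction, while 17 were histone genes and 403 had Gm or Rik names. A gene that fell in the fit had to be high in an SFB-negative library, so these counts describe the genes and are no test. Cmss1 stood at 31.5 and 3763 CPM in SFB-negative 1 and 2 and 23.4 and 259 CPM in SFB-positive 1 and 2, and 99.7% of cells of cluster 2 in SFB-negative 2 held a UMI of it, against 5.17% in SFB-negative 1. AY036118, Lars2 (the mitochondrial leucyl tRNA synthetase) and Camk1d (a calcium-dependent kinase) shared this pattern, with 1159.7, 569.5 and 1343 CPM in SFB-negative 2 and at most 57.3, 33.9 and 186 CPM in any other library. Hist1h4h, Hist2h2ac, Hist1h2ae and Mfsd4a did as well, and their differences within number 1 were -1.10, -1.0, -0.23 and -0.10. What sets SFB-negative 2 apart was not tested, nor was the part of intron reads in the levels of Cmss1 and Camk1d. Of the 31 named genes that rose or fell, DESeq2 with the same term also called 5, which were Ighg2b, Hspa1a, AY036118, Hist1h4h and mt-Atp8.

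Other genes fell within both numbers. mt-Atp8, a subunit of the mitochondrial ATP synthase, stood at 73.6 and 187 CPM in SFB-negative 1 and 2 and 19.5 and 28.2 CPM in SFB-positive 1 and 2, a difference of -2.48 ± 0.32. Ndufa1, a subunit of complex I, stood at 78.2 and 167 CPM in SFB-negative 1 and 2 and 40.3 and 49.1 CPM in SFB-positive 1 and 2, a difference of -1.47 ± 0.30, and was the one of 22 oxidative phosphorylation genes to pass. That list's median was -0.39, with 0.07 within number 1 and -0.80 within number 2, so the number 1 libraries did not show the list's shift. Ube2v1 and the small nucleolar RNA host Snhg9 fell by 2.32 ± 0.41 and 2.01 ± 0.33, and E130102H24Rik by 1.99 ± 0.42, on the log2 scale.

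Single members of other lists fell too. Hes1, a target of Notch signals, stood at 120.3 and 52.4 CPM in SFB-negative 1 and 2 and 54.6 and 20.4 CPM in SFB-positive 1 and 2, a difference of -1.27 ± 0.29 (adjusted p = 0.00182, edgeR). It was the one of 8 marginal zone genes to pass, and all 8 had negative differences (median -0.41). Of all 8913 genes tested, 79 fell and 4565 had negative differences. Bmf, which promotes cell death, fell by 1.53 ± 0.43 on the log2 scale, from 16.3 and 13.3 to 2.60 and 5.34 CPM. Ifi27l2a, an interferon-induced gene, stood at 161 and 518 CPM in SFB-negative 1 and 2 and 105 and 135 CPM in SFB-positive 1 and 2, a difference of -1.36 ± 0.32, and the other 5 interferon genes tested did not pass. The adaptor Tyrobp had -1.02 ± 0.29. The summed myeloid markers, of which it is one, were 176 and 167 CPM in SFB-negative and 149 and 132 CPM in SFB-positive libraries, while C1qa, C1qb, S100a8 and S100a9 were at 0 in all.

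**Figure D5:**
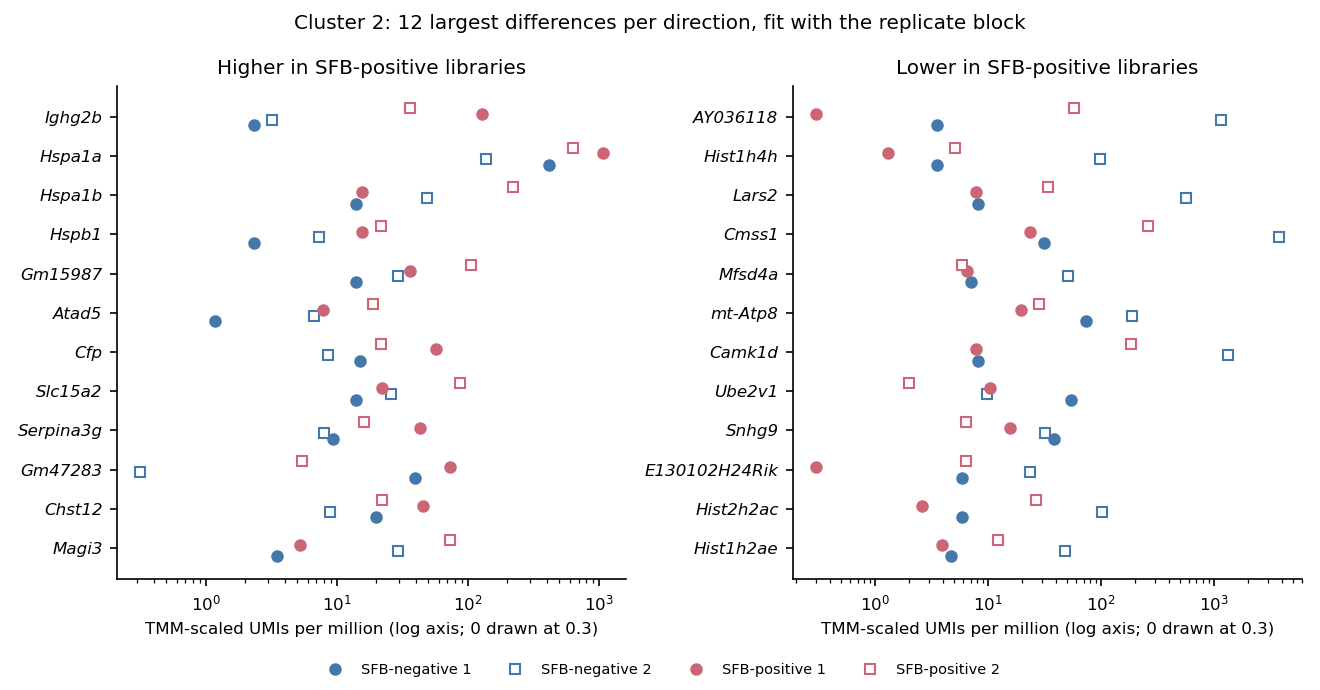
TMM-scaled CPM in cluster 2 (horizontal log axes, values of 0 drawn at 0.3) for the 12 genes of largest rise (left) and the 12 of largest fall (right) with the replicate block, with 1 point per library. On the left red points lie right of the blue point of the same shape, and on the right SFB-negative 2 stands alone for most genes.

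Antibody heavy-chain constant genes in cluster 2 were mostly those of unswitched cells. Ighm made up 77.2% and 64.6% of constant-region UMIs in SFB-negative 1 and 2 and 72.7% and 65.6% in SFB-positive 1 and 2. Ighd made up 21.1% and 33.1% against 22.1% and 27.9%. Ighg2b made up 0.0672% and 0.326% against 3.69% and 3.12%, a difference of 3.21 percentage points that was 3.63 and 2.80 within numbers 1 and 2. The groups did not overlap, and a two-sided exact permutation test gave its smallest possible p, 0.333. Igha made up 1.38% and 1.11% against 1.42% and 2.89%, and Ighg1 0.302% and 0.718% against 0.112% and 0.149%, both with exact permutation p = 0.333. Ighg3 and Ighg2c stayed at or under 0.329% in every library, and Ighe was at 0. Counted by each cell's most abundant constant gene, Ighg2b led in 0.198% and 0% of cells against 0.252% and 1.26%.

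Ighg2b rose more than any other gene, by a log2 difference of 4.22 ± 0.39, and free RNA is a known source of such counts. It was therefore also counted in barcodes outside the table with at least 3 UMIs of T cell receptor complex genes (Cd3d, Cd3e, Cd3g, Trac, Trbc1, Trbc2) and none of Cd79a, Cd79b and Ms4a1, which should not make antibody. At the 2 SFB-positive libraries in order, 11.4% and 16.9% of cells of cluster 2 held a UMI of it, at median depths of 1602 and 6936.5 UMIs. Among the T cell barcodes 6.25% and 12.1% did, at 1404 and 6497.5 UMIs. Its level was 121 and 43.3 CPM in cluster 2, 58.3 and 24.2 in cluster 0 and 54.6 and 18.9 in the T cell barcodes. In SFB-negative 1 and 2 it was 2.21 and 2.94 CPM in cluster 2, 3.50 and 2.13 in cluster 0 and 0 and 0.703 in the T cell barcodes. The SFB-positive libraries were thus higher in cluster 0 and in the T cell barcodes too, without overlap, and the part of free RNA in the difference between groups was not tested. In the SFB-positive libraries cluster 2 stood 2.22 and 2.29 times above the T cell barcodes, and 107 and 39.2 CPM remained without its richest cell. Barcodes without a UMI of Cd79a, Cd79b and Ms4a1 are by that rule those with little free B cell RNA. They may therefore understate the free RNA in cluster 2, and whether its cells made the excess was not tested. The ratio of Ighg2b to Igha UMIs was 2.61 in cluster 2 and 0.875 in the T cell barcodes of SFB-positive 1, and 1.08 and 0.977 in SFB-positive 2. The difference between groups also stood in cluster 0, and the test of the 2 clusters' differences gave 0.67 ± 0.52 (adjusted p = 1.000, edgeR). For Igha, 9.18% and 14.2% of cells held a UMI against 8.98% and 11.5% of the T cell barcodes, so its share in SFB-positive 1 lay near background.

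Whether the difference between groups was itself different in cluster 2 was tested with a library term and an interaction in edgeR. Against cluster 0, 1 of 10024 genes passed (0.00998%), and 300 had an unadjusted p under 0.05. That gene was Pclaf, a factor bound to the replication clamp, with a log2 interaction of 2.88 ± 0.39 and an adjusted p of 2.67e-09. It stood at 9.93 and 11.5 CPM in SFB-negative 1 and 2 and 46.5 and 24 CPM in SFB-positive 1 and 2 in cluster 2, unscaled, and at 4.20 and 12.1 CPM in SFB-negative 1 and 2 and 6.81 and 2.56 CPM in SFB-positive 1 and 2 in cluster 0. In cluster 2 it was therefore higher in both SFB-positive libraries, and in cluster 0 the groups overlapped. Few cells carried it: 7, 26, 13 and 38 cells of cluster 2 held 9, 39, 38 and 163 UMIs. In SFB-positive 2 these cells had a median of 17364 UMIs against 6843 in the others, and 78.9% of them held a UMI of a mitosis gene against 14.0%. Cells without mitosis and germinal centre UMIs held 4.81 and 7.38 CPM of Pclaf in SFB-negative 1 and 2. They held 16.6 and 1.74 CPM in SFB-positive 1 and 2, with overlap. That rule by itself sets aside the 78.9% of Pclaf cells in SFB-positive 2, so nothing is read from these levels. Mcm2 came next among the genes named here, at 1.20 ± 0.29 and an adjusted p of 0.0811. Myc had -0.07 ± 0.19 and Srm 0.27 ± 0.22. Without SFB-negative 2 the Pclaf interaction was 1.79 and with cells of fewer than 3000 genes 2.0, and neither passed (adjusted p = 0.993 and 0.549, edgeR).

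Against cluster 3, 3 of 9829 genes passed (0.0305%). Fcer2a (CD23), the low-affinity IgE receptor of follicular B cells, had an interaction of 1.18 ± 0.20 (adjusted p = 0.0123, edgeR). In cluster 2 it stood at 398 and 258 CPM in SFB-negative 1 and 2 and 382 and 273 CPM in SFB-positive 1 and 2, where the groups overlapped, and in cluster 3 at 208 and 113 CPM in SFB-negative 1 and 2 and 63.3 and 63.2 CPM in SFB-positive 1 and 2, lower in both SFB-positive libraries. Igha had -1.25 ± 0.24 (adjusted p = 0.0479, edgeR), with 376 and 79.5 CPM in SFB-negative 1 and 2 and 946 and 744 CPM in SFB-positive 1 and 2 in cluster 3. Tanc2, a scaffold protein, had 3.48 ± 0.40 (adjusted p = 2.58e-05, edgeR), with 0 and 12.1 CPM in SFB-negative 1 and 2 and 0 and 31.8 CPM in SFB-positive 1 and 2 in cluster 2 and 10.3 and 55.9 CPM in SFB-negative 1 and 2 and 1.06 and 13.8 CPM in SFB-positive 1 and 2 in cluster 3. Its counts in cluster 2 came from the libraries numbered 2 alone, and the part of intron reads in them was not tested. Leaving out SFB-positive 2 turned its sign (-1.88), Igha missed the limit without any 1 library, and Fcer2a missed it without SFB-negative 2 or SFB-positive 2. Pclaf and Tanc2 are named because they passed, after their values were seen.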

How the data were processed

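Raw UMI counts per gene and cell, with antibody tag counts in the libraries numbered 1, were deposited by the authors from Cell Ranger, version 6.0.0 for number 1 and 7.0.0 for number 2 per the file headers (5.0.1 and mm10 per the submitters' processing notes). The aligner settings, the use of intron reads, the cell filters and the treatment of doublets were not given in the sources used here, and no doublet caller was run. The authors' deposited cell table gives cluster numbers, the percent of mitochondrial UMIs and layout coordinates (a score without unit), and only cluster numbers were used. Cells came from the table, counts from the matrices. UMIs were summed per library and cluster. Sums were compared with edgeR 4.0.16 (filterByExpr, TMM, robust quasi-likelihood, Benjamini-Hochberg limit 0.05), without and with the replicate number as a term. The files, not the labels, tie that number to a processing batch. DESeq2 1.42.0 was an alternative, as were RLE scaling, no count filter, cells with fewer than 3000 genes, other references, thinning to 1000 UMIs and leaving out libraries. In counts simulated for the SFB comparison (at least 8984 genes with, 8891 without the replicate number), the fit with the replicate number found 60% of log2 changes of 1 and 99.7% of log2 changes of 2, with 7 false calls on average, and the fit without it found 0%. The simulation gave all genes the same dispersion and both libraries of a number the same means, apart from the added changes. It held no shift of a single library, such as that of SFB-negative 2, so these rates need not hold for the real counts. Depth per library is given with the results. Genes named were the 6 markers, the 20 highest and 10 lowest by ratio, the 12 largest rises and falls with the same sign in both numbers and at least 10 CPM in the higher group, called list members, the 4 most abundant members of a list and the heavy-chain constant genes. Some genes and tags the rule would name are not reported here. Members and gene lists were chosen with earlier results of these data known.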

Additional observations from a re-analysis of the deposited data

Results flagged for a closer look

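These are the genes for which the difference between SFB groups in cluster 2 differed from that in another cluster, tested as an interaction in edgeR over all genes. Against cluster 0 the log2 interaction of Pclaf was 2.88. Against cluster 3 it was 1.18 for Fcer2a, 3.48 for Tanc2 and -1.25 for Igha. Each lost its call with cells of fewer than 3000 genes and without at least 1 library.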

How the results depend on the processing

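Without the replicate block, edgeR called 0 genes; DESeq2 called 1 higher, no count filter 1 higher, and leaving out 1 library 0 to 1 higher and 0 to 4 lower, where a lone library was assumed to vary like the other group. The replicate block gave 23 higher and 79 lower. Within that fit DESeq2 gave 2 and 3, cells with fewer than 3000 genes 9 and 45, and no replicate block 0 and 0. Of the 31 named calls, 29 held with RLE scaling, 28 with no count filter, 27 without cells holding genes of other types, 21 with cells under 3000 genes, 5 with DESeq2 and 0 without the block. Signs turned, with no call, for C1qbp (-0.12), Nfkbid (0.12), Myc (0.0242) and Ranbp1 (-0.0498) in cells under 3000 genes, for C1qbp (-0.0283) without cells holding genes of other types, and for Ighm (-0.00574) without the block. Against cluster 0, RLE scaling gave 4 and 3 calls, cells under 3000 genes 0 higher, and leaving out 1 library 0 to 3 higher and 0 to 1 lower. Against cluster 3, no filter gave 4 higher, cells under 3000 genes 0 and 0, and leaving out 1 library 0 to 21 higher and 0 to 7 lower, with Tanc2 between -1.88 and 9.74. The share of cluster 2 differed by -0.279 percentage points in cells under 3000 genes and by -1.39 to 1.75 without 1 library. The Ighm share differed by 2.45 by dominant gene and by -8.05 to 4.53 without 1 library, and the Ighd share by -8.18 to 3.89. The marker median was 2.01 against cluster 0 and 1.77 after thinning. The causes were not tested. The correlation of same-numbered deviations over genes was 0.824. With 2 libraries a group the deviations of the 2 numbers mirror each other, so this is 1 value. Leaving out a library with the block, or a replicate number from the interactions, leaves no residual degrees of freedom and was not run. Leaving out libraries in the interactions, dropping cells with genes of other types and dropping the block for named genes were chosen after seeing the data. With 2 libraries a group, no exact test could pass 0.05.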
